A study of Mus musculus with 27 samples.

Results

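Untreated FLK1+ cells were compared with the same kind of cells after 5 h of blast culture, to describe what the first hours of that culture do to gene expression before any blood or vascular fate is sorted. The arrays were chosen by their labels alone: 2 untreated FLK1+ arrays and 2 untreated FLK1+ 5h arrays, which are 4 of the 27 arrays of the series, and all genes on them were considered. The cells were mouse embryonic stem cells that carry a Flag-tagged dominant-negative FOS peptide (dnFOS) behind a doxycycline (DOX) responsive promoter at the Hprt locus, differentiated as embryoid bodies for 3.75 days. FLK1+ cells were then purified magnetically and either used directly or plated with VEGF and IL-6. All 4 arrays came from cells without DOX, so the dnFOS cassette was present and not switched on. The line was a clone picked after drug selection, and the number of clones behind the arrays is not given in the sources used here. The FLK1+ cells had been purified by their receptor, whereas the 5 h cultures were taken whole and not sorted again. Time, plating, the added factors and a change in cell composition therefore cannot be told apart. In these bulk samples, fewer cells of a type and less RNA per cell also cannot be told apart. Untreated cultures at 24 h (d1 BC, 2 arrays) and 5 h cultures given 1 µg/ml DOX (2 arrays) are used for side-by-side values.

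FLK1, encoded by Kdr, is a VEGF receptor that marks the hemangioblast, a mesodermal precursor of endothelium, smooth muscle and blood. In blast culture, hemangioblasts attach, leave the programme of the primitive streak and begin to form vascular and hemogenic cells. Signals from receptors and from attachment reach the nucleus through inducible factors, among them AP-1, made of FOS, JUN and ATF proteins, and TEAD factors, whose cofactors YAP and TAZ are held back by the Hippo kinases.

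Each level below is the log2 signal of a gene's probe minus the 75th percentile of that array, so that 0 is the 75th percentile, and a change is the FLK1+ 5h mean minus the FLK1+ mean on that scale. Levels of different genes come from different probes and cannot be ranked against each other. The 75th percentile of the raw signal was 316.6 and 347.6 on the FLK1+ arrays and 370.6 and 635.5 on the FLK1+ 5h arrays, and 46.8% to 64.2% of probes were well above background. Across genes, replicate arrays correlated with r = 0.974 in FLK1+ cells and r = 0.966 at 5 h, and arrays of different groups with r = 0.935 to 0.959. Both FLK1+ arrays and FLK1+ 5h replicate 2 lay on the same slide and were scanned on the same day. FLK1+ 5h replicate 1 lay alone on another slide and was the only array of the series scanned on its day. Nothing in the labels says that replicates came from separate cultures, so the p-values measure the spread between replicate arrays, estimated over all 27 arrays of the series, which may be technical, and 2 arrays a group limit the precision.

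After 5 h of blast culture, more transcripts were called higher than lower. Of 22658 genes and transcripts tested, 588 were called higher (2.60%) and 56 lower (0.247%), a call being a Benjamini-Hochberg adjusted p under 0.05 in limma and at least a 2-fold change. The median fold was 8.35 among those called higher and 6.30 among those called lower. The median change over everything tested was -0.18, with quartiles of -0.71 and 0.51, and 57.8% of the changes were below 0. Counted without a test, both 5 h arrays lay above both FLK1+ arrays for 5830 transcripts and below them for 7542, so the excess of rises holds for the called transcripts and not for all. Of the called transcripts, 284 higher and 48 lower had a RefSeq gene symbol. A probe had to be well above background on both arrays of at least 1 group, and 185 of those called higher were not above background on either FLK1+ array, which fixes their direction. Of those called higher, 305 were well above background on all 4 arrays, and 226 rises were called when this was required before the fit.

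**Figure D1:**
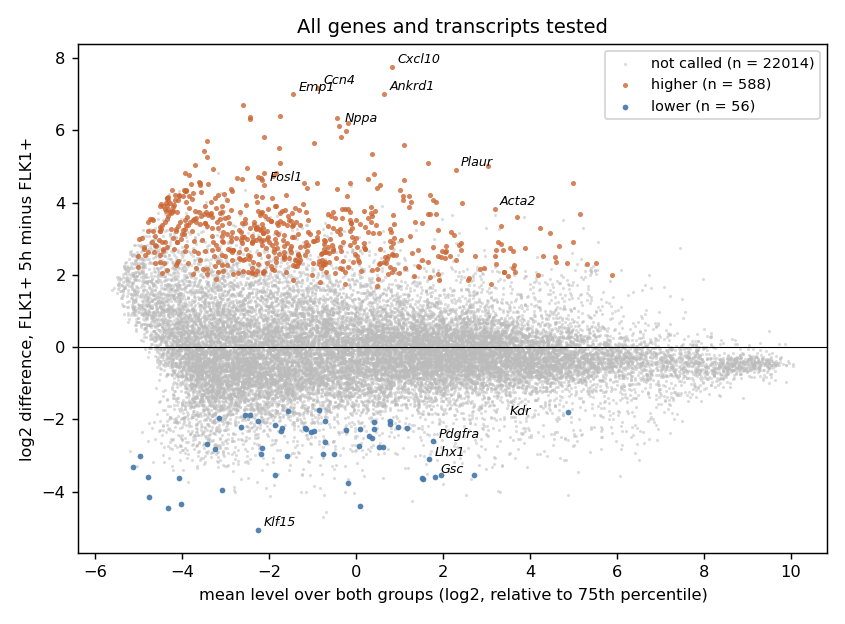
All 22658 genes and transcripts tested, with the mean log2 level over the 2 groups on the x axis and the log2 difference (FLK1+ 5h minus FLK1+) on the y axis. Orange points are the 588 called higher, blue points the 56 called lower, and grey points those not called.

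The number of calls depended on individual arrays. Leaving out FLK1+ 5h replicate 1, so that only arrays of the shared slide were compared, left 45 genes higher and 2 lower. Without FLK1+ replicate 1 there were 86 and 9, and without FLK1+ replicate 2 there were 458 and 20. Without FLK1+ 5h replicate 2 there were 375 and 303, so that 44.7% of the calls were lower there, against 8.7% with all arrays. The 77 called genes of the lists and of the largest changes each kept their sign under these omissions, which share arrays with the full comparison. The call was lost for 62 without FLK1+ 5h replicate 1, for 54 without FLK1+ replicate 1, for 34 without FLK1+ replicate 2 and for 19 without FLK1+ 5h replicate 2. With slide as a fixed block 32 of the 77 lost the call, with scan day as a fixed block 35, and with normexp background correction, which subtracts a modelled background and adds an offset to every spot, 14. Each omission leaves a group of 1 array, which is then assumed to vary like the other groups. Either fixed block, slide or scan day, does the same, because FLK1+ 5h replicate 1 is alone on its slide and scan day. The change of a gene is then that without this array (for Acta2 3.69 with slide as a block and without the array). These are therefore not separate checks. There were 14 genes that stayed called whichever array was left out, among them Anxa8, Ccl2, Ccn4, Dio3, Emp1, Eppk1, Ltbp2, Nppa, Nppb, Plaur, Rab7b, Slc6a12 and Thbs1.

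The 15 largest rises among called genes with a symbol are given first. Cxcl10, a chemokine, stood at -3.06 and -3.04 in the FLK1+ arrays and at 4.84 and 4.55 after 5 h. This was a rise of 7.75 (SE 1.23, 215-fold, adjusted p = 0.00225), and without FLK1+ 5h replicate 1 the adjusted p was 0.0531. With normexp the change was 6.21 and with the authors' processed values 6.71. Ccn4, a matrix-associated signalling protein of the CCN family, was not above background in FLK1+ cells and reached 3.17 and 2.25, which was at least 118-fold higher (adjusted p = 0.000445). Such bounds apply to the processed signal used here, and with normexp the change of Ccn4 was 4.68. Its second probe gave almost the same difference in signal.

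Ankrd1, a cardiac and vascular nuclear protein and a well-known target of YAP and TEAD, moved from -2.51 and -3.22 to 4.41 and 3.89. The change was 7.01 (SE 1.45, adjusted p = 0.0128), and its adjusted p was 0.177 without FLK1+ 5h replicate 1, 0.107 without FLK1+ replicate 1 and 0.0718 without FLK1+ replicate 2. Emp1, an epithelial membrane protein, lay at 1.68 and 2.40 after 5 h against a background-level signal before, at least 75.3-fold higher (adjusted p = 0.000253), with a change of 4.46 under normexp. Thbs1, the matrix glycoprotein thrombospondin 1, went from -3.66 and -3.57 to 2.97 and 2.47, a change of 6.33 (SE 0.80, adjusted p = 0.000348).

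Both natriuretic peptide genes, which encode hormones released by stretched heart muscle, rose together. Nppa stood at -3.48 and -3.45 and then at 2.78 and 2.55, and Nppb at -2.58 and -4.01 and then at 3.26 and 2.58. Nppa had the smallest error of the largest rises, 6.12 (SE 0.54, adjusted p = 1.37e-05), and Nppb rose by 6.21 (SE 0.82, adjusted p = 0.000453). In neither gene did the groups overlap, which the choice of genes required, and 1 of the FLK1+ arrays was above background for each.

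The remaining large rises covered varied functions. Ccl2, the monocyte chemokine, went from -3.65 and -2.87 to 2.43 and 2.69. Eppk1 (epiplakin, which binds keratin filaments), Prss23 (a serine protease) and Dio3 (the deiodinase that inactivates thyroid hormone) rose by 5.64, 5.59 and 5.34. For Slc6a12, a betaine transporter, Rab7b, a small GTPase of endosome traffic, Iqsec3, an exchange factor for ARF GTPases, and Anxa8, an annexin, neither FLK1+ array was above background, and the signal after 5 h was at least 30.8, 43.2, 10.4 and 28.3 times as high. With normexp these 4 changes were 3.31, 3.61, 1.84 and 2.96 on the log2 scale, and that of Iqsec3 was not called (adjusted p = 0.074). The weaker of the probes for Anxa8 gave a change of 2.36 against 5.10 for the probe reported. Without FLK1+ 5h replicate 1 the adjusted p was 0.0662 for Iqsec3 and 0.0798 for Prss23, and without FLK1+ replicate 1 it was 0.0874 for Iqsec3.

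**Figure D2:**
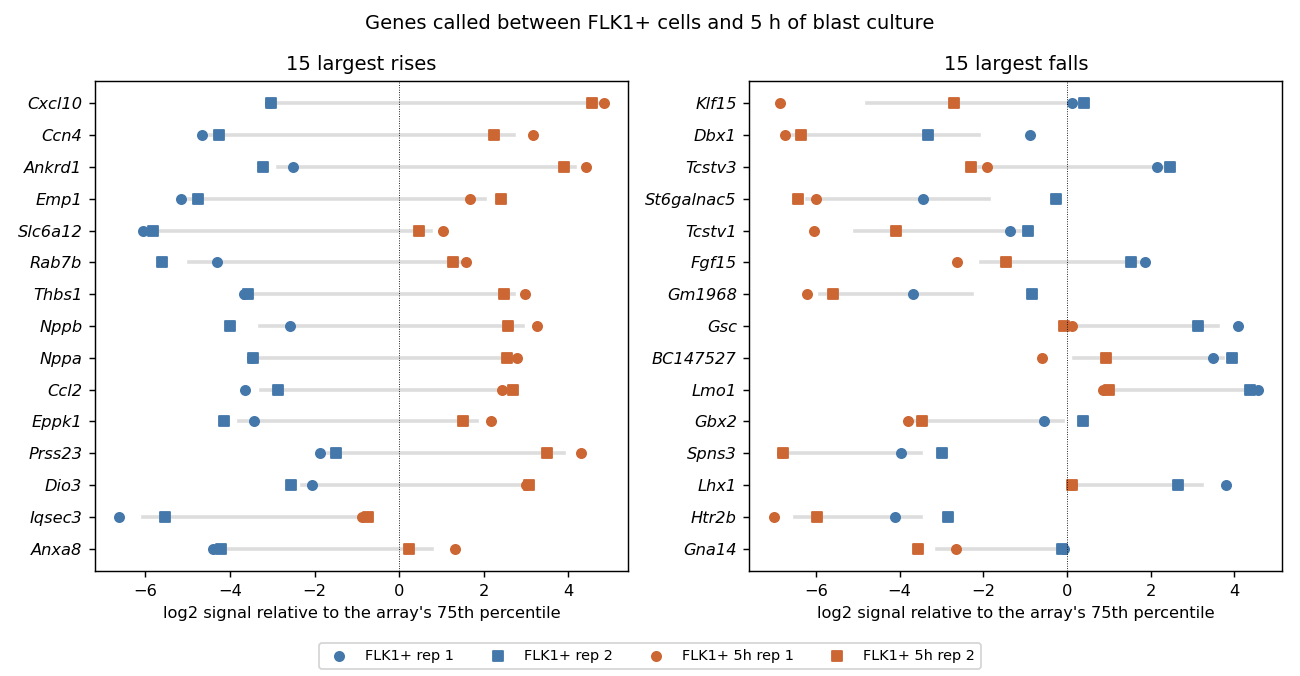
Level of the 15 largest rises (left) and 15 largest falls (right) among called genes with a symbol, as log2 signal relative to the 75th percentile of each array. Blue marks are the FLK1+ arrays and orange marks the FLK1+ 5h arrays (circles replicate 1, squares replicate 2), and grey bars join the group means. The choice of the 30 genes required the groups to be apart, which held for all 588 rises and 56 falls called. The replicates of Klf15 at 5 h lie far from each other.

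AP-1 members changed unevenly. Of 15 genes of the family, 14 were tested, 2 were called higher and 0 lower (14.3%, beside 2.60% higher and 0.247% lower over all features tested), 13 of 14 changes were above 0, and the median was 1.19 against -0.18 for all genes tested. Fosl1 (FRA1), a FOS family partner of JUN that accumulates late after stimulation, went from -3.81 and -4.93 to 0.19 and 0.05. The rise was 4.49 (SE 0.83, adjusted p = 0.00616), and 2.4 with normexp and 2.90 with the authors' processed values, 1 of the FLK1+ arrays being below background. Here and in the lists that follow, members below background in FLK1+ cells passed the filter only through their 5 h level, so counts and medians describe the tested members and not the lists. The members and lists were also chosen with earlier results of these data known. A share above that over all features is therefore no independent support. Fosl2 (FRA2), its close relative, went from 1.06 and 1.05 to 3.95 and 3.56, a rise of 2.70 (SE 0.47, adjusted p = 0.00387), although a second probe gave 0.54. Without FLK1+ 5h replicate 1 the adjusted p was 0.113 for Fosl1 and 0.101 for Fosl2, without FLK1+ replicate 1 it was 0.0584 for Fosl2, and without FLK1+ replicate 2 it was 0.0568 for Fosl1.

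The classical members did not pass the test. Fos itself lay at 0.06 and 0.68 in FLK1+ cells and at 1.21 and 2.00 after 5 h (change 1.23, SE 0.83, adjusted p = 0.52), and Jun at 4.24 and 4.11 and then 5.40 and 4.84 (change 0.94, SE 0.57, adjusted p = 0.462). Fosb (1.96), Atf3 (2.54), Junb (0.68), Jund (0.45), Jdp2 (1.15), Batf3 (1.24), Atf2 (0.75), Atf4 (0.38) and Atf5 (1.28) had changes above 0, Batf2 had one of -3.08, and none was called. Atf3, a stress-induced partner of JUN, lay at 1.25 and 0.88 and then 3.88 and 3.34 (adjusted p = 0.0626). Among 26 tested immediate early genes, which respond within minutes to growth factors, 1 was called (3.85%, near the 2.60% over all features), Klf6 (2.01, SE 0.43, adjusted p = 0.0147), and the change of Egr1 was -0.86 (adjusted p = 0.437).

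Ankrd1 was 1 of several called genes known as TEAD targets. Of 23 tested, 21 had a change above 0, 5 were called higher (Ankrd1, Axl, Ccn1, Lats2 and Ptpn14) and 0 lower, which was 21.7% beside 2.60% over all features, and the median was 1.64. Ptpn14 (1.74) was not called with normexp (1.41, adjusted p = 0.105) and lost its call under most omissions of 1 array. Ccn1 (CYR61), a matricellular protein, went from 2.52 and 2.60 to 6.17 and 5.57, a rise of 3.31 (SE 0.82, adjusted p = 0.0349). Its neighbour in function Ccn2 (CTGF) had a change of a similar size, from 2.03 and 2.08 to 6.38 and 4.95, but with a larger error it was not called (3.61, SE 1.22, adjusted p = 0.137). Axl, a receptor tyrosine kinase, went from -2.16 and -0.86 to 2.09 and 2.04 (3.58, SE 0.73, adjusted p = 0.012).

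Among the factors of the pathway itself, 2 of 17 were called higher (11.8%, beside 2.60% over all features): Tead3, a DNA-binding TEAD factor, from -1.68 and -1.80 to 0.29 and 0.41, and Lats2, a Hippo kinase, from 0.03 and 0.66 to 2.41 and 2.24. Tead1 (2.52, adjusted p = 0.071) and Tead4 (2.13, adjusted p = 0.0798) were above both FLK1+ arrays without being called, whereas Tead2 (-0.40) and Yap1 (-0.40) were not called and below 0. The calls of Tead3 and Lats2 had adjusted p of 0.0487 and 0.0493 and each was lost when any of the 4 arrays was left out. Ccn1 was lost likewise, with adjusted p of 0.067 to 0.348. Without FLK1+ replicate 1 or FLK1+ 5h replicate 1 the adjusted p of Axl was 0.237 and 0.154.

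The letters that AP-1 and TEAD factors are known to bind were looked up in the promoters of the called genes. RefSeq windows from 250 bases before to 50 bases after a transcript start (GRCm38.p6) were found for 208 of the symbols called higher, with 276 windows. The AP-1 letters TGANTCA, which read the same on both strands, were in 10.1% of these against 5.25% of the 14227 windows of all tested genes, and in 10% of the 50 windows of genes called lower, close to the share in the rises. The TEAD letters GGAATG, on either strand, were in 19.2% against 12.6%, and in 8.0% for genes called lower. The CRE letters TGACGTCA were in 0.725% against 2.95%, and the E-box letters CACGTG in 5.80% against 9.62%. An NF-kappaB motif was in 8.33% against 5.38% and a CArG box in 1.09% against 1.42%. Among the 50 windows of genes called lower, the CArG box and the NF-kappaB motif were each in 6.0% (3 windows each). The E-box letters were in 8.0% of them and the CRE letters in 0%. These shares describe short windows, were not tested, and say nothing of binding. Stretches upstream of the start are shown for genes with large rises, with the AP-1 letters in capitals, as the strand of the gene reads them.
Plaur, chr7:24462384-24462450, plus strand: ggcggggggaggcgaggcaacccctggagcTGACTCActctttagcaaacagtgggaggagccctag
Emp1, chr6:135362756-135362822, plus strand: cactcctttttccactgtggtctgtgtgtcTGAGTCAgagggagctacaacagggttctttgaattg
Il11, chr7:4778203-4778269, minus strand: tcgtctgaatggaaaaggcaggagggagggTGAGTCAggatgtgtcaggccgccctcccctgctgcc
Cxcl10, chr5:92348927-92348993, minus strand: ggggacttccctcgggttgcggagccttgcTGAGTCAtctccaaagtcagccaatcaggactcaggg
Counted from the start, the matches begin at -69, -145, -98 and -74 in Plaur, Emp1, Il11 and Cxcl10, and Emp1 holds a further match at -25. For the TEAD letters, with GGAATG or its reverse complement CATTCC in capitals, Ankrd1 holds 2 matches, and Ccn1 and Nppb 1 each.
Ankrd1, chr19:36120019-36120084, minus strand: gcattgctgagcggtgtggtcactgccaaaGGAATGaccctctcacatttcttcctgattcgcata
Ankrd1, chr19:36119932-36119997, minus strand: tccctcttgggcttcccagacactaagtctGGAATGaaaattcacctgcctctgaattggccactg
Ccn1, chr3:145650053-145650118, minus strand: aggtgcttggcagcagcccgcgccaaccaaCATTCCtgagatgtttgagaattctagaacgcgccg
Nppb, chr4:147985765-147985830, plus strand: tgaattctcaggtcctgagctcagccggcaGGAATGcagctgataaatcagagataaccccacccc
These matches begin at -210, -123, -103 and -105.

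Genes of cell surface proteolysis and of the matrix were also among the rises. Of 17 tested plasminogen and matrix protease genes, 3 were called higher and 0 lower (17.6%, beside 2.60% and 0.247% over all features, median 1.06). Plaur, the urokinase receptor, went from -0.06 and -0.27 to 4.98 and 4.49, a rise of 4.90 (SE 0.61, adjusted p = 0.000345). Tnfrsf12a, the receptor FN14, rose by 3.61 (SE 0.55, adjusted p = 0.00177). The protease genes Mmp2 (-0.85) and Mmp14 (-1.03) were not called. Of 26 tested matrix genes, 3 were called higher and 0 lower (11.5%, beside 2.60% over all features), among them Thbs1 and Lamb3. Lamb3, a laminin chain of basement membranes, rose by 2.82 with unequal FLK1+ arrays of -2.89 and -0.22, and its change was 1.48 (adjusted p = 0.727) without FLK1+ replicate 1. Lama3, another laminin chain, changed by 0.25 (SE 0.65) and Fn1, fibronectin, by -0.32 (SE 0.68).

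Of 16 tested integrin subunits, 2 were called higher (12.5%, beside 2.60% over all features), 1 of them with probes that disagree. Itga7, a laminin receptor of muscle, went from -1.62 and -1.83 to 2.72 and 2.63 (4.40, SE 0.79, adjusted p = 0.00511), and its adjusted p was 0.0948 without FLK1+ 5h replicate 1 and 0.0619 without FLK1+ replicate 1. Itga4, which binds VCAM1 and fibronectin, rose by 2.97 with the probe reported, but the other probe gave -1.54, and with the mean of both probes the change was 0.72 (adjusted p = 0.62). Integrin beta 1 (Itgb1, 0.72, SE 0.64) was not called.

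In the smooth muscle list and the broad actin and focal adhesion list, 7 genes were called higher and 0 lower. This was 8.33% and 14.6% of the lists, beside 2.60% over all features. All 12 tested smooth muscle genes had changes above 0, with a median of 1.50, and Acta2, smooth muscle actin, was the only one called: from 1.44 and 1.1 to 5.24 and 4.97, a rise of 3.83 (SE 0.67, adjusted p = 0.00414). Tagln went from 6.23 and 5.93 to 9.24 and 8.43 (2.75, SE 0.94, adjusted p = 0.146) and Cnn1 from 4.19 and 4.04 to 7.50 and 6.54 (2.91, SE 1.19, adjusted p = 0.246), changes larger than the gap between their replicates but not called. Of 41 genes in the actin and focal adhesion list, 37 had changes above 0 and 6 were called: Anxa1 (3.82), Filip1l (3.36), S100a6 (3.17), Lmna (2.36), Flnc (2.30) and Cd44 (2.25). None of these 6 stayed called under every omission of 1 array, and S100a6 lost its call under most of them. Actb and Actg1, the cytoplasmic actins, changed by -0.24 (SE 0.71) and -0.32 (SE 1.03). The call of Acta2 was lost only without FLK1+ 5h replicate 1 (adjusted p = 0.094), and that of Flnc was lost when any array was left out (adjusted p 0.0668 to 0.367).

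Of 6 heart muscle markers, 5 had changes above 0 and 0 were called. They were well above background on all 4 arrays, their summed level was 5.01 to 5.37 in FLK1+ cells and 7.31 to 7.77 at 5 h, and Actc1 (3.31, adjusted p = 0.201) and Tnnt2 (3.04, adjusted p = 0.0952) had the largest changes, while the cardiac factor Nkx2-5 lay at -0.78 and -0.94 and then at -2.12 and -1.68. Their part in the rises of Nppa, Nppb and Ankrd1 was not tested. Of 7 neural ectoderm markers, 5 were tested and 1 was called higher (20%, beside 2.60% over all features). This was Nes, an intermediate filament gene also used by other embryonic progenitors (2.52, SE 0.58, adjusted p = 0.0228). Tubb3 (2.19), Sox3 (0.52), Zic1 (-1.53) and Sox1 (-2.22) were not called. The summed level of the neural markers, made up mostly by Nes, was 3.29 to 3.67 and then 5.40 to 6.01. The stem cells had been grown on feeder cells, and of 10 fibroblast feeder markers 5 were tested and 0 called. They summed to 2.67 to 2.69 in FLK1+ cells and to 3.35 to 3.50 at 5 h, but their median change was -0.63. Col1a1 (1.92) and Twist2 (0.34) had changes above 0 and Col1a2 (-1.32), Col3a1 (-0.67) and Thy1 (-0.63) below 0, so that the higher sum came from Col1a1. What these markers contribute to the other changes was not tested.

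Among chemokines and cytokines, 5 of 12 tested genes were called higher (41.7%, beside 2.60% over all features), with a median of 3.38. Of the 12, 5 were above background on no FLK1+ array and were tested only through their 5 h level, so neither the count nor the median stands for the whole list. The called genes were Cxcl10, Ccl2, Ccl7, a further monocyte chemokine (at least 3.79-fold higher, but 0.90 with adjusted p = 0.545 under normexp), Il11, a cytokine of the IL-6 family, and Csf1, the macrophage growth factor. Il11 went from -2.02 and -2.18 to 2.13 and 1.31 (3.82, SE 0.74, adjusted p = 0.00825) and Csf1 from -0.81 and -0.58 to 2.76 and 1.69 (2.93, SE 0.65, adjusted p = 0.0188). Tnf (at least 9.41-fold higher, adjusted p = 0.0542) and Cxcl1 (at least 4.0-fold, adjusted p = 0.071) were not above background in FLK1+ cells and were not called, and the receptor Cxcr4 had a change of -2.10 (adjusted p = 0.257). With normexp background correction the median of this list was 0.94, and with the authors' processed values 1.91. For Il11 the adjusted p was 0.173 without FLK1+ 5h replicate 1 and 0.0914 without FLK1+ replicate 1. The adjusted p of Csf1 was 0.317 without FLK1+ 5h replicate 1, 0.202 without FLK1+ replicate 1 and 0.0651 without FLK1+ replicate 2.

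VEGF and IL-6 were the factors added to the culture. Of 10 VEGF ligands and receptors, 1 was called (10%, beside 2.60% over all features), the ligand Pgf (placental growth factor), which went from -1.24 and -1.56 to 2.58 and 1.56 (3.47, SE 0.84, adjusted p = 0.0314). Kdr, the receptor by which the cells had been purified, went from 4.68 and 4.11 to 1.91 and 2.91, both below the FLK1+ arrays, but its change of -1.98 (SE 0.82, adjusted p = 0.249) was not called. Flt1 (0.71), Flt4 (0.12), Nrp1 (-1.38), Nrp2 (0.36), Vegfa (1.26), Vegfb (-0.99), Vegfc (-0.75) and Vegfd (1.37) were not called either.

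Of 17 tested VEGF response genes, of which 6 passed the filter only through their 5 h level, 3 were called higher (17.6%, beside 2.60% over all features): Plaur, Pgf and Ptgs2, the inducible cyclooxygenase, which was at least 2.82-fold higher (adjusted p = 0.007). Ptgs2 was not called with normexp (0.48, adjusted p = 0.725), with the authors' processed values (1.22, adjusted p = 0.159), without FLK1+ 5h replicate 1 (adjusted p = 0.0907) or without FLK1+ replicate 1 (adjusted p = 0.148). Of 17 IL-6 and STAT3 response genes, of which Lif and Osmr passed only through their 5 h level, 14 had changes above 0 (median 1.52, and 0.82 with normexp). Of the 17, 1 was called (5.88%, beside 2.60% over all features), the receptor chain Il6ra, from -2.05 and -1.75 to 0.32 and 0.44 (2.28, SE 0.51, adjusted p = 0.0212). The feedback inhibitor Socs3 lay at 0.40 and 0.42 and then at 2.76 and 1.65 (1.79, SE 0.86, adjusted p = 0.339). Il6ra lost its call when any array was left out (adjusted p 0.0636 to 0.244), and the adjusted p of Pgf was 0.373 without FLK1+ 5h replicate 1, 0.208 without FLK1+ replicate 1 and 0.144 without FLK1+ replicate 2.

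Among growth factor systems there were calls in both directions, 16.7% of the EGF and PDGF list and 23.1% of the FGF list, beside 2.60% called higher and 0.247% called lower over all features. Of 12 EGF and PDGF genes, of which Erbb3, Tgfa and Egf passed only through their 5 h level, 11 had changes above 0, with a median of 2.07 that was 1.13 with normexp and 1.33 with the authors' processed values. Pdgfa, a PDGF ligand, was called higher, from 3.44 and 3.60 to 6.97 and 5.90 (2.91, SE 0.75, adjusted p = 0.0447), and its receptor gene Pdgfra, a marker of paraxial and cardiac mesoderm, was called lower, from 3.41 and 2.76 to 0.65 and 0.30 (-2.61, SE 0.63, adjusted p = 0.0296). Both calls were lost when any array was left out. Of 13 FGF genes, Fgf18 (3.01, adjusted p = 0.00725) and the receptor Fgfr3 (3.20, adjusted p = 0.0156) were called higher, Fgfr3 losing its call when any array was left out (adjusted p 0.0514 to 0.184) and Fgf18 without FLK1+ 5h replicate 1 (0.146) or FLK1+ replicate 1 (0.121). Fgf15, a ligand of the early embryo, was called lower, from 1.87 and 1.52 to -2.64 and -1.46 (-3.75, SE 0.82, adjusted p = 0.0176), and kept its call only without FLK1+ 5h replicate 2 (adjusted p 0.0578 to 0.29 under the other omissions). Fgf8, a streak ligand, lay at 4.87 and 3.73 and then at 3.42 and 1.99, which was not called (-1.59, adjusted p = 0.439). Further calls stand beside the same shares over all features. Among 20 tested MAP kinase feedback genes (10% called) they were the phosphatase Dusp8 (2.99) and the ETS factor Etv1 (-2.24). Among 29 of the TGF-beta list (6.9%) they were Ltbp2 (4.70), which binds microfibrils, and the BMP antagonist Grem1 (2.63). Among 17 p53 targets (11.8%) they were Gadd45b (2.88) and Perp (2.20), and among 13 clock genes (15.4%) Bhlhe40 (2.96) and Dbp (-2.75). Hspa1a (3.43) was called among 11 heat shock genes (9.09%), and Pou3f1 (2.44) and Klf5 (1.96) among 23 of the pluripotency list (8.7%). Of these, Dusp8, Etv1 and Klf5 stayed called under 0 of the 4 omissions, Grem1, Perp, Pou3f1 and Bhlhe40 under 1, Gadd45b and Hspa1a under 2, Dbp under 3 and Ltbp2 under 4. Grem1 was at 1.02 (adjusted p = 0.527) with normexp.

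Lists taken from the study were drawn up with these same samples and are no independent evidence of direction. Of the 20 vascular FOS:JUN targets, 19 had changes above 0 and 4 were called higher (20.0%, beside 2.60% over all features), among them Wt1 and Axl (median 1.69). Wt1, the Wilms tumour factor of mesothelium and early kidney, went from -2.60 and -2.22 to 1.69 and 0.77 (3.64, SE 0.74, adjusted p = 0.0115), and its adjusted p was 0.216 without FLK1+ 5h replicate 1 and 0.147 without FLK1+ replicate 1. Of 25 listed genes that the study names for these arrays, 24 were tested, with 20.8% called beside 2.60% higher and 0.247% lower over all features. Fgf15 was called lower, the same 4 higher, and Myo1e (1.07), Runx1 (1.27), Gata1 (0.77), Cebpa (1.80) and Csf1r (-0.12) were not called.

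**Figure D3:**
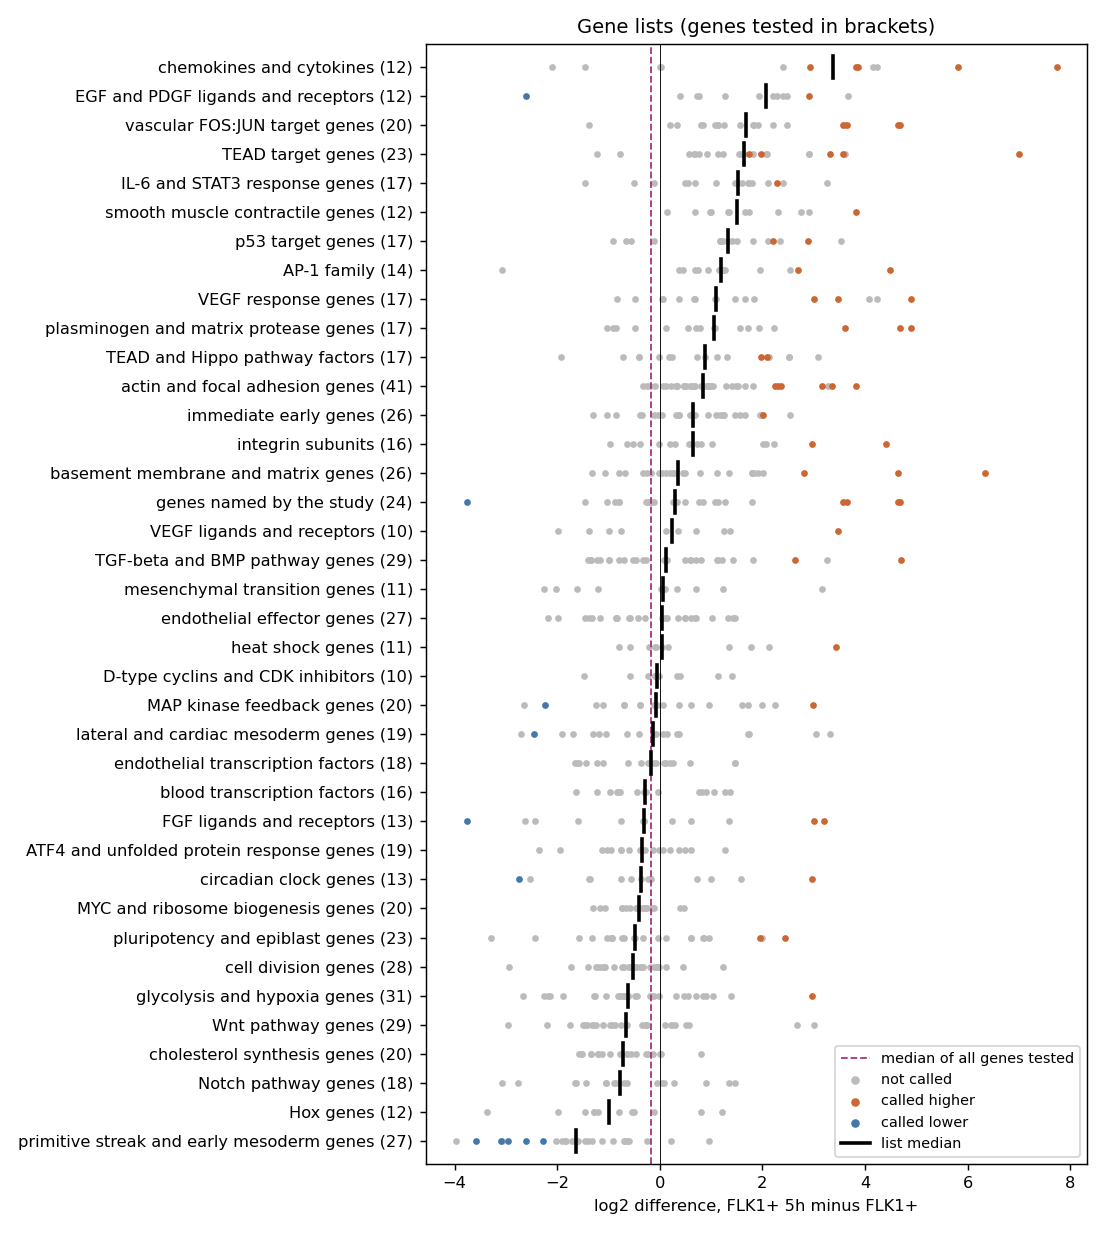
Log2 difference (FLK1+ 5h minus FLK1+) of every tested gene in 38 lists, ordered by list median (black bars). Orange and blue points are genes called higher and lower, and the dashed line is the median of all genes tested, -0.18. The chemokine list is drawn highest with a median of 3.38, which was 0.94 with normexp and then below that of the smooth muscle list (1.55), and the primitive streak list lowest with -1.64.

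Genes of the primitive streak and early mesoderm gave 5 of the 9 falls called in the lists. Of 27 tested genes in that list, 25 had changes below 0, 5 were called lower and 0 higher (18.5%, beside 0.247% called lower over all features), and the median was -1.64. Of 8 endoderm markers, a cell type that also uses Gsc and Lhx1, 5 were tested and 0 called, 4 of the 5 changes were below 0 (median -1.33), and Foxa2 (-1.84) and Sox17 (-1.58) lay below both FLK1+ arrays. Their summed level was 1.48 to 3.21 in FLK1+ cells and 0.58 to 1.79 at 5 h, Afp and Apoa1 were above background on no FLK1+ array, and their part in the falls was not tested. Lhx1, a LIM homeobox factor of the streak, went from 3.79 and 2.66 to 0.13 and 0.12 (-3.10, SE 0.52, adjusted p = 0.00322). Gsc, the organizer factor goosecoid, went from 4.08 and 3.12 to 0.12 and -0.08 (-3.58, SE 0.89, adjusted p = 0.0349). Mesp2 (-2.96) and Tbx6 (-2.27), factors of presomitic mesoderm, and Pdgfra were the other calls.

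Mesp1, the earliest factor of cardiovascular mesoderm, had the largest change in the list, from 5.73 and 4.75 to 1.57 and 0.95, but was not called (-3.98, SE 1.16, adjusted p = 0.0747). It was called under 7 of 20 alternatives, among them normexp (-3.91, adjusted p = 0.000483) and the values processed by the authors (-3.81, adjusted p = 0.000535). It was not called with quantile normalization (adjusted p = 0.0682). With slide as a fixed block, which takes up FLK1+ 5h replicate 1, the change was -4.29. T (brachyury) lay at 4.05 and 4.14 and then at 2.39 and 2.36 (-1.72, SE 1.14, adjusted p = 0.513), so the groups did not overlap and the change was not called. Nodal (0.95) and Cdx2 (0.22) were the members with changes above 0. The adjusted p of Lhx1 was 0.0662 without FLK1+ 5h replicate 1 and 0.104 without FLK1+ replicate 1. Gsc, Tbx6 and Pdgfra lost their calls when any array was left out, and Mesp2 kept its call only without FLK1+ replicate 2 (adjusted p = 0.0334).

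The FLK1+ label was checked against markers of hemangioblast mesoderm. All 12 were well above background on all 4 arrays, and with the probes reported all 12 changes were below 0 (median -1.46). A second probe of Bmp4 gave 0.42, against -0.70 for the probe reported. The 1 called, Pdgfra (8.33%, beside 0.247% called lower over all features), also marks paraxial and cardiac mesoderm. Their summed level was 7.87 to 7.93 in FLK1+ cells and 6.44 to 6.71 at 5 h. Etv2, the ETS factor that opens the blood and endothelial programme, went from 5.41 and 4.71 to 3.52 and 4.15, and Tal1, the blood factor SCL, from 2.71 and 2.78 to 2.01 and 1.94. Neither was called (adjusted p = 0.503 and 0.77).

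Outside the streak list, Klf15, a Krüppel-like factor, had the largest fall of a called gene, from 0.13 and 0.40 to -6.85 and -2.71 (-5.05, SE 1.27, adjusted p = 0.0373). Its 5 h arrays differed widely, 1 of them not above background, and the change was -2.98 (adjusted p = 0.637) without FLK1+ 5h replicate 1 and -7.12 without FLK1+ 5h replicate 2. Lmo1, a LIM-only cofactor, went from 4.57 and 4.38 to 0.85 and 1.00 (-3.55, SE 0.74, adjusted p = 0.0132), and BC147527 from 3.50 and 3.94 to -0.60 and 0.94 (-3.55, SE 0.53, adjusted p = 0.00133). Lmo1 was not called with quantile normalization (-3.36, adjusted p = 0.0826) and lost its call under most omissions of 1 array. Tcstv3, a gene of the earliest embryo, went from 2.14 and 2.45 to -1.92 and -2.29 (-4.40, SE 0.84, adjusted p = 0.00756). Tcstv3 lost its call without FLK1+ 5h replicate 1 or FLK1+ replicate 1. Its relative Tcstv1 was called lower with -3.94, but the change was -1.75 (adjusted p = 0.0815) with normexp and the call was kept only without FLK1+ 5h replicate 2 (adjusted p = 0.0253), and because the family has near-identical copies the probes may share signal. The homeobox genes Dbx1 and Gbx2 and the heart factor Gata5 were called lower, Gbx2 with a change of -3.54 and Gata5 with -2.45. Gbx2 lost its call when any array was left out (adjusted p 0.0637 to 0.279), and Dbx1 and Gata5 lost theirs without FLK1+ 5h replicate 1 or FLK1+ replicate 1. St6galnac5 (a sialyltransferase), Gm1968, Spns3 (a lipid transporter relative), Htr2b (a serotonin receptor) and Gna14 (a G protein subunit) completed the 15 largest falls, Gna14 with a change of -3.0. Of these, Dbx1, St6galnac5, Gm1968, Spns3 and Htr2b were not above background on either 5 h array and were at least 7.90, 9.40, 7.06, 3.05 and 3.04 times lower on the signal used here. With normexp their changes were -1.56, -1.73, -1.26, -0.94 and -0.78 and none was called, and with the authors' processed values Gm1968, Spns3 and Htr2b were not called. Spns3 and Gna14 lost their calls when any array was left out. Without FLK1+ replicate 2 the change was -2.76 for St6galnac5 and -2.21 for Gm1968 (adjusted p = 0.0839 and 0.241).

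In 12 of the 38 lists no gene was called. Blood and endothelial transcription factors (16 and 18 tested) had medians of -0.29 and -0.17, close to that of all genes, and 27 endothelial effector genes one of 0.05. Runx1, the factor needed for blood emergence, lay at -0.02 and 0.57 and then at 1.63 and 1.45 (1.27, SE 0.68, adjusted p = 0.399). Of 28 cell division genes, 25 had changes below 0 (median -0.52), of 20 ribosome biogenesis genes 18 (median -0.41), and of 20 cholesterol synthesis genes 17 (median -0.71), in each case without a call and beside 57.8% of all changes below 0. With quantile normalization, where the median of all genes was -0.03, the first 2 medians were -0.23 and -0.10. Among 31 glycolysis and hypoxia genes the called one was Bhlhe40, which rose (3.23%, near the 2.60% called higher over all features). Pdk1 (-2.14, adjusted p = 0.0501), Egln3 (-2.25, adjusted p = 0.0559) and Bnip3 (-2.18, adjusted p = 0.104), known hypoxia-induced genes, lay below both FLK1+ arrays and were not called. Of 29 listed Wnt genes 21 and of 18 listed Notch genes 12 had changes below 0, led by Dkk1 (-2.96, adjusted p = 0.12) and Dll3 (-3.07, adjusted p = 0.0676). Wnt10b (4.75) and Wnt9a (3.04), which are not in the Wnt list, were called higher.

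Some of the genes named above were also called from 5 h to 24 h, and examples follow. This step shares the 5 h arrays, so that an error in them moves both steps in opposite directions. In it 130 of 23434 tested were called higher (0.555%) and 207 lower (0.883%). With median scaling these were 84 and 334, without FLK1+ 5h replicate 2 they were 239 and 94, and without FLK1+ 5h replicate 1 they were 15 and 15. Acta2 was called higher again, reaching 9.27 and 8.92 at 24 h (3.99 above 5 h, adjusted p = 0.00477), and so was Ptgs2, at -0.40 and -0.18. Slc6a12, Rab7b, Iqsec3, Anxa8, Il11, Grem1, Lamb3 and Hspa1a, all called higher at 5 h, were called lower from 5 h to 24 h. Il11, for example, lay at -0.85 and -2.28 at 24 h (-3.29, adjusted p = 0.0313), and Slc6a12 at -2.99 and -4.46 (-4.48, adjusted p = 0.00463). Most named rises were not called in this step, and examples that lay above both FLK1+ arrays at 24 h were Plaur (5.28 and 4.67), Ccn1 (5.56 and 5.49), Emp1 (2.19 and 2.36) and Ccl2 (2.86 and 1.80).

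Of the genes that fell, Gsc (-4.17 and -5.82 at 24 h), Lhx1 (-2.10 and -2.06) and Tcstv3 (-6.86 and -6.47) were called lower again, and Mesp1, T and Etv2, uncalled at 5 h, were called lower from 5 h to 24 h (adjusted p = 0.0176, 0.0448 and 0.0119). Spns3 was called higher in this step, at -2.82 and -3.83. The 5 h cultures with DOX, set beside the same FLK1+ arrays, gave levels of 2.17 and 2.98 for Ankrd1, 1.56 and 1.86 for Thbs1, 4.16 and 4.10 for Plaur, -0.72 and -0.19 for Fosl1, 5.36 and 4.94 for Acta2, 2.18 and 2.33 for Nppa and 1.24 and 0.75 for Gsc. All of these lay beyond both FLK1+ arrays in the direction seen without DOX, and no difference between cultures with and without DOX was tested for them here.

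**Figure D4:**
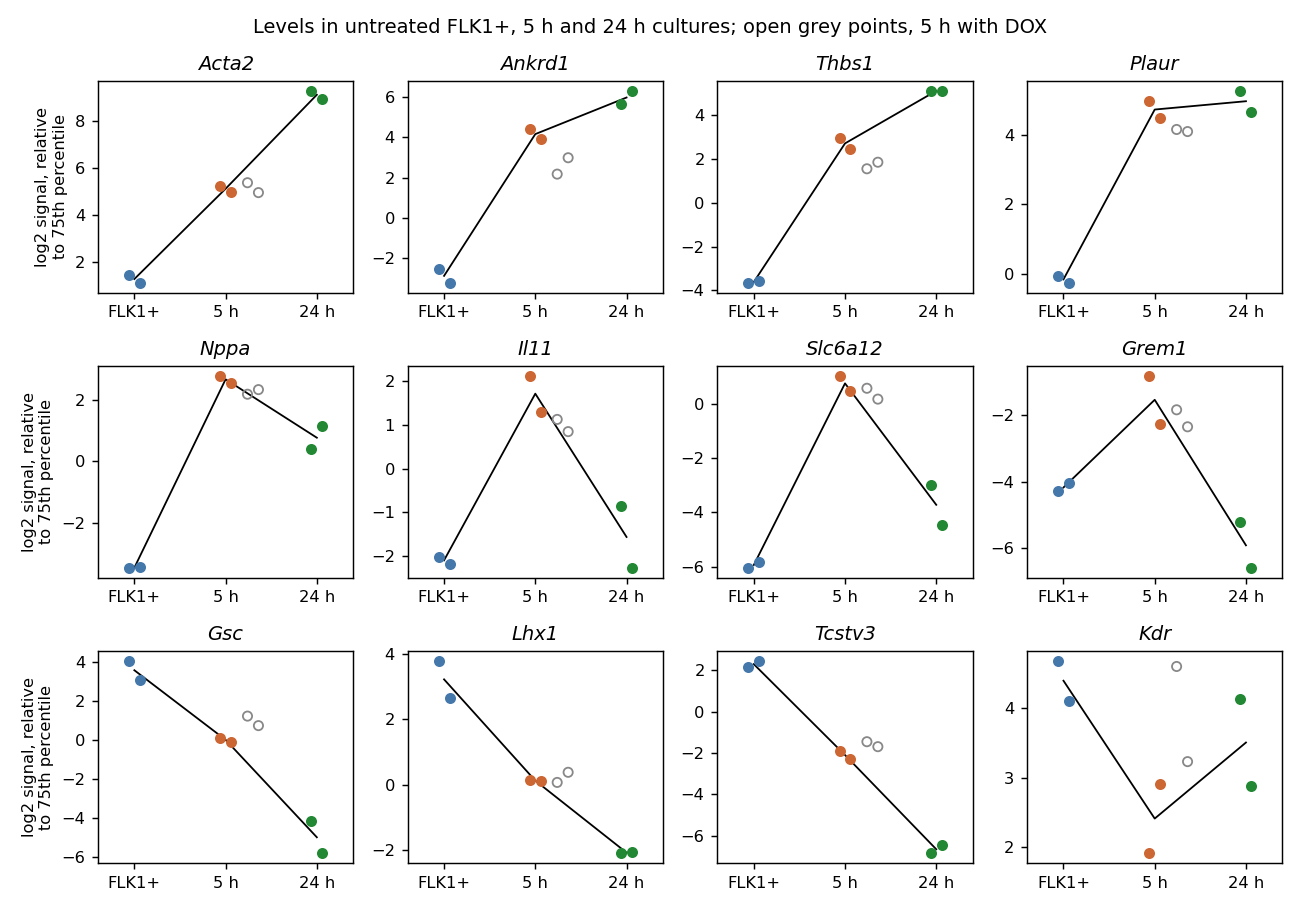
Levels (log2 signal relative to the 75th percentile) of 12 genes in untreated FLK1+ cells (blue), 5 h (orange) and 24 h cultures (green), with each array as a point and lines through the group means, and 5 h cultures with DOX as open grey points. Acta2 climbed at both steps, Il11, Slc6a12 and Grem1 peaked at 5 h, and Gsc, Lhx1 and Tcstv3 fell at both steps.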

How the data were processed

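RNA from the 4 arrays compared was labelled with Cy3 and hybridised to Agilent 60K mouse arrays. The deposited files hold spot intensity values that the authors extracted with Feature Extraction, whose version is 10.7.1.1 per the labels and 10.7.3.1 per the file headers. The authors' processed values, deposited on a log2 scale, were used as an alternative. Here the log2 processed signal minus the 75th percentile of each array was taken after removal of control spots and outlier flags. Of several probes of a gene, the one with the highest mean over all arrays was kept. Probes had to be well above background on both arrays of either group. All 27 arrays in 13 groups were fitted with limma 3.58.1, and p-values were adjusted by the Benjamini-Hochberg method over all 22658 genes and transcripts. Named genes were the 15 largest called rises and falls with a symbol and no overlap between the groups, together with list members. The members and lists were chosen with earlier results of these data known. Promoter sequences came from RefSeq tables for GRCm38.p6. Alternatives covered background correction, scaling, filters, probe choice, slide, scan day, replicate number, weights and left-out arrays. Some called genes are counted but not reported by name here.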

Additional observations from a re-analysis of the deposited data

How the results depend on the processing

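For FLK1+ 5h against FLK1+, the 588 rises and 56 falls became 329 rises with normexp background correction, 35 falls with median scaling, 186 falls with the authors' processed values, 33 falls with no filter on dim probes, and 226 and 28 when both groups had to be above background. They were 304 rises with slide as a fixed block, 1052 and 219 with slide as a random block, 251 and 25 with scan day as a fixed block, 1426 and 337 with array quality weights, and 290 and 20 with only the untreated arrays in the fit. An unadjusted p gave 2156 and 1194, and an adjusted p under 0.01 gave 175 and 8. For the fold changes of this comparison, slide or scan day as a fixed block equals leaving out FLK1+ 5h replicate 1. Leaving out 1 array at a time gave 45 to 458 rises and 2 to 303 falls. With the replicate number as a block there were 640 rises and 86 falls, and the numbers did not pair the samples, since the deviations of same-numbered arrays correlated at -0.098. In this comparison the 77 named called genes kept their sign, with the exception of the probe of Itga4 not reported, but 32 lost the call with slide and 35 with scan day as a fixed block. List medians near 0 changed sign, for endothelial effector genes under 11 alternatives. The median change of all genes, -0.18, was -0.03 with quantile normalization and -0.10 with median scaling.

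For d1 BC against FLK1+ 5h, alternatives added after the data were seen moved the 130 rises and 207 falls to 84 and 334 with median scaling, where 79.9% of calls were lower against 61.4%, to 205 and 480 with the authors' processed values, 86 and 136 with no filter, and 32 and 46 when both groups had to be above background. Slide as a fixed block gave 75 and 87, as a random block 269 and 393, scan day 46 and 73, weights 379 and 583, only untreated arrays 59 and 100, an unadjusted p 1246 and 1213, and an adjusted p under 0.01 gave 33 and 55. Leaving out 1 array gave 15 to 239 rises and 15 to 173 falls. The cause of these shifts was not tested. Signal near background limits the genes that were dim in 1 group.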

Other observations

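Transcripts without a RefSeq gene symbol made up a large share of the rises, a grouping chosen after their values were seen. Of 1014 tested probes for cDNA clones without a symbol, 113 were called higher (11.1%) and 3 lower, and their median change was 0.84. Of 14102 genes with a symbol, 284 were called higher (2.01%), with a median of -0.15. These clones had low signals, with array medians of -3.0 and -2.5 in FLK1+ cells, -1.87 and -1.84 at 5 h and -2.0 and -2.18 at 24 h, and 599 of the 1014 were well above background on all 4 arrays. Of 2789 long intergenic RNA regions, 97 were called higher (3.48%) and 0 lower, while their median change was -0.39. Of 3 well-known long noncoding RNAs looked up after these shares were seen, 2 were called. Meg3 went from 2.55 and 3.98 to 5.66 and 4.88 and was not called (2.0, SE 0.76, adjusted p = 0.202). Malat1 went from -0.03 and 1.47 to 3.44 and 3.25 (2.62, SE 0.65, adjusted p = 0.0349) and Neat1 from -1.88 and -0.57 to 2.45 and 1.86 (3.38, SE 0.62, adjusted p = 0.00598). At 24 h Malat1 lay at 1.65 and 2.47 and Neat1 at 0.58 and 0.62. What these rises share with signal level, which was low for the clones, was not tested.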
